A study of Mus musculus with 16 samples.

Results

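The genes described are the 10 core genes of the growth hormone, JAK2, STAT5 and IGF1 axis: the receptor genes Ghr and Prlr, the kinase gene Jak2, the transcription factor genes Stat5a and Stat5b, the feedback inhibitor genes Socs2, Socs3 and Cish, and the output genes Igf1 and Igfals. DNase I hypersensitive sites (DHS) are stretches of open chromatin that the enzyme DNase I cuts readily. DHS of 4 lists were joined into regions wherever they shared at least 1 bp, and a region was assigned to a gene when it overlapped the gene or the 20 kb on either side of it. This gave 123 regions at the 10 genes, of 51482 regions in all. The windows of Stat5a and Stat5b, which lie next to each other, shared 5 regions.

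Growth hormone binds its receptor GHR on hepatocytes and activates the receptor-bound kinase JAK2, which phosphorylates STAT5A and STAT5B. The STAT5 proteins then bind DNA in the nucleus and drive transcription of Igf1 and of SOCS family genes, whose products dampen receptor signalling. Growth hormone is secreted in separate pulses in male rodents and more continuously in females, and STAT5 is a known mediator of the sex differences in liver gene expression that follow.

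DNase-seq was performed on liver nuclei of males and females of C57BL/6J (B6), the laboratory strain behind the mouse reference genome, and of CAST/EiJ (CAST), a wild-derived inbred strain. All mice were 8 weeks old by their sample labels and untreated as far as these go, and all nuclei received 32 units of DNase I. The 16 libraries formed 4 groups of 4 (each sex of each strain), and the authors pooled the 4 libraries of a group before calling DHS. Each group is therefore a single list without replicate error, no test was possible, and each difference below is a difference between pooled lists.

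Each DHS has a fold enrichment, the pile-up of DNase fragments at its summit over the local background of its own list. The number of DHS was 38751 and 26271 in B6 males and females and 39562 and 24888 in CAST males and females, on a genome-wide background of 15.4, 13.9, 14.3 and 7.94 overlapping fragments in the same order. At that background, the weakest enrichment that could be called was 1.90-fold in both male lists, 1.94-fold in female B6 and 2.24-fold in female CAST. A region missing from a list was therefore not detected at this depth, which does not show that its chromatin was closed. Of 6 hepatocyte marker genes, 5 had a DHS over a start site in both male lists and 4 in both female lists. Serpina1a lacked one in all 4 lists and Apoa1 in both female lists. None of 4 Kupffer cell and 4 blood cell marker genes had one in any list. Of 4 sinusoidal endothelium markers, 4, 3, 2 and 1 had a start-site DHS in male B6, female B6, male CAST and female CAST. For stellate cells it was 1, 1, 1 and 0 of 4 markers, and for bile duct 1 of 4 in each list. The part of these cell types in the regions below was not tested, and in bulk nuclei fewer cells with an open site and less cutting per cell cannot be told apart.

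STAT proteins bind a short palindrome whose core is TTCNNNGAA, with N any base. BCL6, a repressor, binds a similar core. The core was searched on both strands of the mm9 sequence in the 300 bp around the summit of every region. It was present at 27 of the 123 regions of the axis, or 22.0%, and at 10.2% of all regions. The sequences below are shown because they hold the core in capitals. They comprise each window outside a start site with more than 1 core, which are both in Igf1 introns, the strongest Igf1 region, the strongest Stat5a region, a Prlr start-site region, and short sites at the Cish and Socs3 start sites. The strongest Igf1 and Stat5a windows were added to this set after their values were seen. All sequence is that of the reference strain B6, and the CAST alleles were not examined.
Igf1 intron, 45.7 kb inside the gene from the nearest start, chr10:87369595-87369894, plus strand: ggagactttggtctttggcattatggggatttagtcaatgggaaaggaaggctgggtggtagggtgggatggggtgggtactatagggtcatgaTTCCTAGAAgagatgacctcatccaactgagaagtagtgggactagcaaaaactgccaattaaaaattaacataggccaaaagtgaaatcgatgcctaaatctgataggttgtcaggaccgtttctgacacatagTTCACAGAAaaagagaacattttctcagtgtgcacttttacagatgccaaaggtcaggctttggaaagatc
Igf1 intron, 40.8 kb from the nearest start, chr10:87364729-87365028, plus strand: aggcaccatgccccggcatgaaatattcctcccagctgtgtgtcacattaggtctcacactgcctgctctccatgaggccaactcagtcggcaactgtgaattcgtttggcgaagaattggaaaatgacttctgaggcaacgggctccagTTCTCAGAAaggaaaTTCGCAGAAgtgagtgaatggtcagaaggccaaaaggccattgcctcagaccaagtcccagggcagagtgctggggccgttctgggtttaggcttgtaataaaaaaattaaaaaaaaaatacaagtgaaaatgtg
Igf1 intron, 24.3 kb from the nearest start, chr10:87348252-87348551, plus strand: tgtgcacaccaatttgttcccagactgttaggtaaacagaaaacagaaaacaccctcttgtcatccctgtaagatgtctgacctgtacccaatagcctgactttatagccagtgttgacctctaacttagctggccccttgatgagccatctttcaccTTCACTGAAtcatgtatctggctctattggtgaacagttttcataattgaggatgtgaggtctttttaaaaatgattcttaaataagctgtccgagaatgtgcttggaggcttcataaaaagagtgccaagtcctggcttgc
Stat5a intron, chr11:100731798-100732097, plus strand: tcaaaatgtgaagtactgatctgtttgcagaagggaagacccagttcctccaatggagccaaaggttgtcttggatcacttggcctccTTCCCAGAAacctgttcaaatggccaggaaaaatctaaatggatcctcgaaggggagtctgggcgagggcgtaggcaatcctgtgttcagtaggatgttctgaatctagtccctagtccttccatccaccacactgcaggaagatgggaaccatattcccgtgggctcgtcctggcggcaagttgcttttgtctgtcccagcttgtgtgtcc
Prlr start site, chr15:10153404-10153703, plus strand: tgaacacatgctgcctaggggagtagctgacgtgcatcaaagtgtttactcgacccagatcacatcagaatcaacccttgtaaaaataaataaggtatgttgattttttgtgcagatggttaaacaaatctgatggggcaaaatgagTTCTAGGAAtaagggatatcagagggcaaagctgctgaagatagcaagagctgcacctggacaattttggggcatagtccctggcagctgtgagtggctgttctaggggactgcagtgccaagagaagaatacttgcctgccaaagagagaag
Cish, upstream pair, chr9:107198985-107199014, plus strand: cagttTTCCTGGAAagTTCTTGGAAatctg
Cish, downstream pair, chr9:107199093-107199122, plus strand: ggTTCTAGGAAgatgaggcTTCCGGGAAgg
Socs3, single core, chr11:117830543-117830571, plus strand: cgccccccgaTTCCTGGAActgcccggcc

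The region over the Cish start held 4 STAT cores in its 300 bp window, the most of any region of the axis. They lay in 2 pairs, at 80 and 69 bp before the summit on the plus strand and at 25 and 42 bp after it. Both pairs lie within the 5′ UTR of the longest annotated Cish transcript, and the upstream pair lies before the start of a shorter one. A core of each pair, TTCCTGGAA and TTCCGGGAA, also fits the stricter letters TTCCNGGAA. The Socs3 site, 84 bp before the summit, fits them as well, and no other window of the axis did. In the Igf1 introns, the 2 cores of the region at 45.7 kb lay 51 bp before and 84 bp after the summit, and those of the region at 40.8 kb, which only the male CAST list held, at a fold enrichment of 2.18, lay 5 and 20 bp after it. The Prlr core sat 2 bp from the summit of its region.

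By gene, a core was found at 5 of 15 regions at Igf1, 3 of 6 at Socs2, 2 of 7 at Cish, 2 of 7 at Stat5a, 4 of 17 at Stat5b, 6 of 26 at Prlr, 5 of 30 at Ghr, 1 of 6 at Socs3, 1 of 8 at Igfals and 0 of 6 at Jak2. Among the regions found in all 4 lists, 15 of 43 regions of the axis held a core, or 34.9%, against 8.88% of all regions of that kind. The median GC content of these windows also differed, at 46.3% and 54.3%. Split by GC content, a core was found at 3 of 7 of these regions below 40% (42.9%, against 16.6%), 8 of 18 at 40 to 50% (44.4%, against 13%) and 4 of 18 from 50% up (22.2%, against 6.28%). Among those found in fewer lists, it was 12 of 80, or 15%, against 10.9%. The core is poor in G and C, and the windows of the axis had a median GC content of 45.3% against 49.0% in all regions. At a GC content of 40 to 50%, 14 of 56 regions of the axis held a core, or 25%, against 12.3% of all regions in that range. Below 40% it was 7 of 25, or 28.0%, against 14.8%, and from 50% up it was 6 of 42, or 14.3%, against 7.13%. With the stricter letters TTCCNGGAA the share was 1.63% at the axis and 1.72% in all regions, and over the whole region it was 6.50% (8 of 123, interval 2.85 to 12.4) and 3.20%. The FOXA core TGTTTAC, bound by liver forkhead factors, was found at 9.76% of the regions of the axis and 6.59% of all regions, and the HNF4 core CAAAGTCCA at 2.44% and 1.69%. A match describes letters only, not binding.

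**Figure D1:**
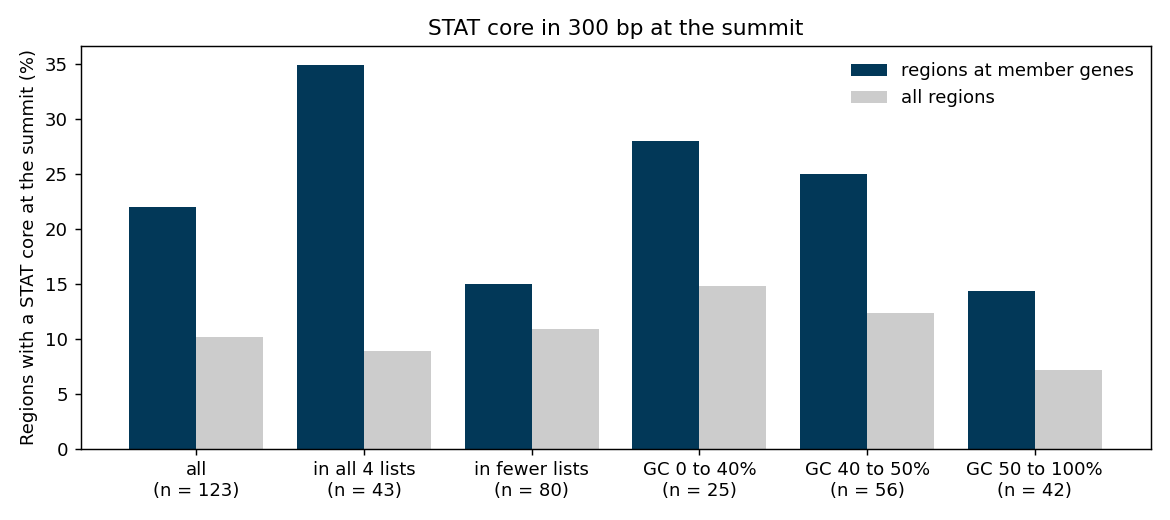
Percentage of DHS regions with a STAT core within 300 bp at the summit, for regions at the 10 genes (dark bars, with their number n under each pair) and all regions (grey bars), over all regions, by number of lists and by GC content of the window. The dark bar is the taller of each pair, and the difference is largest for regions in all 4 lists, at 34.9% against 8.88%.

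At the level of the whole axis, open chromatin in the full lists was shared between sexes and strains about as often as elsewhere in the genome. Of the 123 regions, 91 and 62 were found in B6 males and females and 99 and 58 in CAST males and females. All 4 lists held 43 of them, or 35.0%, against 35.6% of all regions, and a single list held another 43, or 35.0%, against 35.2%. The share in all 4 lists depended on the threshold: with only the stronger DHS it was 49.2% of 59 regions (95% exact binomial interval 35.9 to 62.5), against 34.1% of all regions. Of the single-list regions, 16 and 5 were in B6 males and females (13% and 4.07% of the axis, against 14.2% and 3.13% of all regions) and 20 and 2 in CAST males and females (16.3% and 1.63%, against 15.2% and 2.54%). A further 21 were in 3 lists, or 17.1% (95% exact binomial interval 10.9 to 24.9), against 12.1% of all regions.

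The males of both strains, without the females, held 11 regions (8.94%, against 9.38% of all regions), whereas the females of both strains held none without the males (0.0622% of all regions). The CAST lists held 3 regions missing from both B6 lists (2.44%, against 3.62%), and the B6 lists held none missing from both CAST lists (3.32% of all regions). With lists cut to equal size, 82 regions of the axis remained and these 4 counts became 1 (1.22%, against 2.29% of all regions), 1 (1.22%, against 0.953%), 5 for CAST (6.10%, against 5.72%) and 5 for B6 (6.10%, against 5.64%).

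Ghr, the longest of the genes, had the most regions. Per 100 kb of window there were 18 regions at Igfals, the gene of the acid-labile subunit that holds IGF1 in the circulating complex, 11 at Prlr, 9.81 at Ghr and 5.93 at Jak2, the lowest. At Igfals, however, 4 of the 8 regions cover starts of neighbouring genes, and without such regions there were 9.02 at Igfals and 14.5 at Stat5b, then the highest. The female lists had fewer regions than the male list of their strain at most genes, and Jak2 in B6, with 4 in the female and 3 in the male list, and Cish in B6, with 4 in each, were the exceptions.

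**Figure D2:**
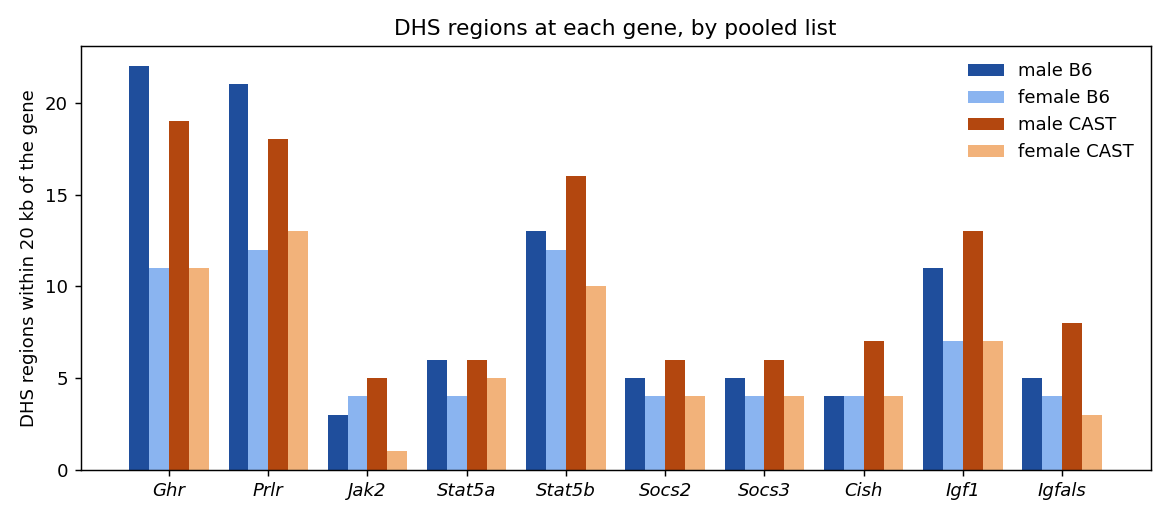
Number of DHS regions within 20 kb of each gene in each pooled list, 1 bar per list. Ghr went from 22 regions in male B6 to 11 in each female list, while Socs2, Socs3 and Cish had 4 in each female list.

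**Figure D3:**
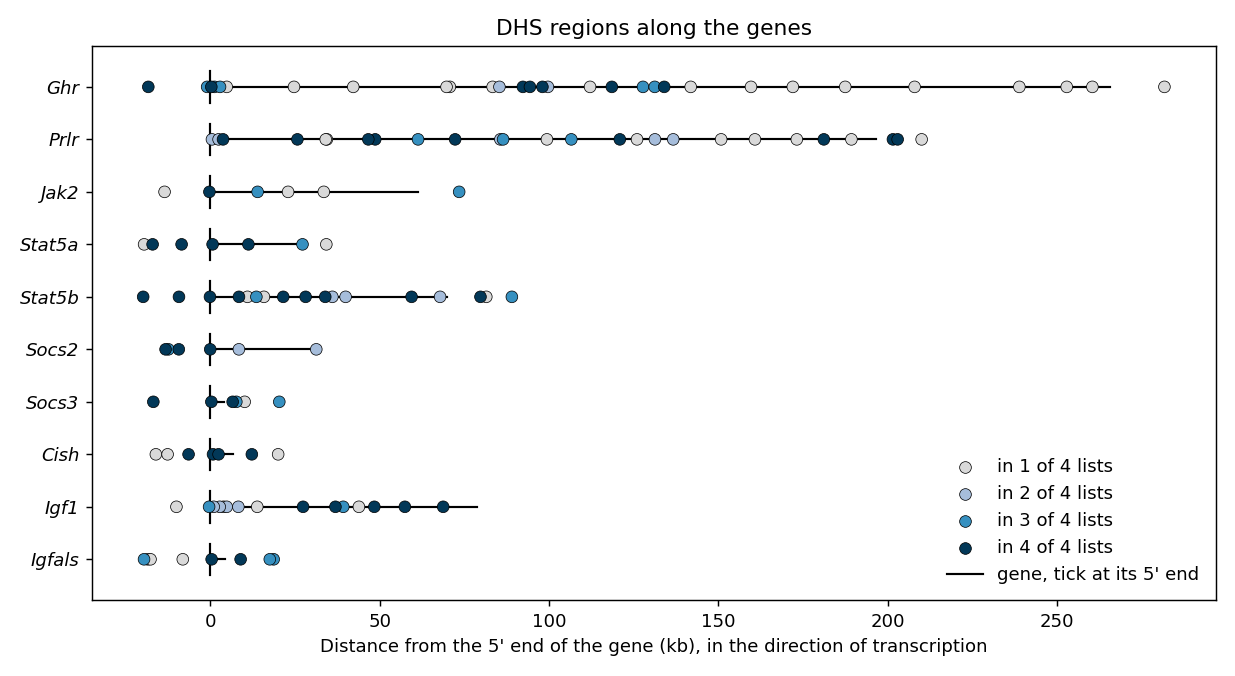
Position of the DHS regions along each gene, in kb from its 5′ end in the direction of transcription. Each dot is the middle of a region and its shade gives the number of lists that held it. The darkest dots, in 4 of 4 lists, include the start of 8 of the genes, and the paler dots spread through Ghr, whose far introns hold regions of a single list.

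Ghr encodes the growth hormone receptor, and 30 regions lay at it, with 22 and 11 in B6 males and females and 19 and 11 in CAST males and females. Only 7 of the 30 were in all 4 lists. The region over the start of the gene (chr15:3532864-3533588, in a 5′ UTR) had a fold enrichment of 5.01 and 3.47 in B6 males and females and 6.08 and 4.64 in CAST males and females, and its summits lay within 16 bp of each other. The strongest region (chr15:3414510-3415420) lay in an intron, 6.67 kb downstream of an internal start site, at 8.77, 5.37, 9.70 and 7.76 in the same order. It ranked between the 83.3 and 93.6 percentile of its lists.

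Both male lists, and neither female list, held the Ghr intron regions at chr15:3433656-3434030 and chr15:3447971-3448347. The former had a fold enrichment of 1.86 in male B6 and 2.05 in male CAST, and the latter 2.11 and 2.89. The value of 1.86 is below the 1.90-fold limit of male B6, which holds only at the genome-wide background. A Ghr intron region with a STAT core (chr15:3440964-3441483) had 3.71, 2.32, 5.0 and 4.15 in male B6, female B6, male CAST and female CAST.

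Prlr encodes the prolactin receptor, which also signals through JAK2 and STAT5, and its expression in mouse liver is known to be higher in females. It had 26 regions, with 21 and 12 in B6 males and females and 18 and 13 in CAST males and females, and 9 were in all 4 lists. The strongest (chr15:10132177-10133191, an intron 10.5 kb upstream of the nearest annotated start) reached 14.3 and 9.95 in B6 males and females and 14 and 12.5 in CAST males and females. It was at the 98.6 percentile or above in each list, and the summits lay within 38 bp.

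Of the Prlr start-site regions, 4 in number, 2 were in all lists. The region at chr15:10178825-10179672 had fold enrichments of 8.42, 4.24, 8.35 and 5.0 in male B6, female B6, male CAST and female CAST, so that both male values were above both female values. The region at chr15:10153272-10153964, the Prlr sequence printed above, had 5.43, 4.80, 6.39 and 6.02, with no such separation. The region over the first exon (chr15:10107182-10107724) was found in female B6 at 2.09 and in male CAST at 2.47 only, and that at chr15:10243400-10243867 in male B6 at 3.10 and male CAST at 2.25 only.

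Besides this last start-site region, the Prlr intron regions held by both male lists alone were at chr15:10192342-10192850, with 2.73 in male B6 and 2.53 in male CAST, and at chr15:10237937-10238549, with 2.28 and 2.64. An intron region near the first start (chr15:10109128-10109685) was held by both CAST lists alone, at 2.52 in CAST males and 2.63 in CAST females. A distal intron region (chr15:10287468-10288759) also covers the start of Agxt2, a gene for a mitochondrial aminotransferase, and cannot be given to Prlr alone. Its fold enrichment was 9.78 and 5.02 in B6 males and females and 8.06 and 3.02 in CAST males and females, and the male values exceeded the female values in both strains.

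Jak2 encodes the kinase bound to both receptors, and its 6 regions were 3 and 4 in B6 males and females and 5 and 1 in CAST males and females. The only region in all 4 lists was that over its start (chr19:29325446-29326612), at 6.50, 4.61, 7.51 and 5.29 in male B6, female B6, male CAST and female CAST. It was also the strongest at the gene.

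Stat5a and Stat5b encode the transcription factors, and STAT5B is the main form in liver. Stat5a had 7 regions and Stat5b 17, and 4 and 9 of these were in all 4 lists. The strongest region of both (chr11:100731353-100732424) lay in a Stat5a intron, with fold enrichments of 13.6 and 10.9 in B6 males and females and 16.5 and 13.1 in CAST males and females. It was at or above the 99.1 percentile in every list, and its summits fell within 34 bp.

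The Stat5b start (chr11:100711640-100712688) had 5.49, 4.60, 6.12 and 5.27 in the same order of lists, and an internal Stat5b start (chr11:100683609-100684242) had 3.59, 2.43, 4.16 and 3.01. The Stat5a start region (chr11:100720503-100722131) had 4.14, 3.03, 3.98 and 4.64, and its summits were up to 862 bp apart, the widest spread of any region of the axis found in all 4 lists. In female CAST its DHS was 432 bp wide, against 1421 to 1503 bp in the other lists.

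Both male lists alone held the Stat5b intron regions at chr11:100671813-100672423, with 2.81 in male B6 and 3.29 in male CAST, and at chr11:100675760-100676305, with 2.23 and 2.26. Both CAST lists alone held a region at the 3′ end of Stat5b (chr11:100643641-100644808, UTR and coding exon) at 3.34 in males and 3.82 in females, and its summit window held a STAT core. Both values were the highest among the 3 regions held by the CAST lists alone.

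The feedback inhibitors Socs2, Socs3 and Cish each had their start in all 4 lists. SOCS2 restrains growth hormone receptor signalling, SOCS3 cytokine receptor and JAK signalling, and CISH STAT5 activation at the receptor. The Socs2 start (chr10:94879048-94880684) had fold enrichments of 5.80 and 5.85 in B6 males and females and 6.09 and 6.40 in CAST males and females, so the female value was above the male value in each strain. The Socs3 start (chr11:117830186-117831969) had 4.84, 3.77, 6.48 and 5.93, and the Cish start (chr9:107198520-107199736) had 7.40, 5.42, 9.45 and 7.11.

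The Socs2 and Cish start regions were also the strongest of their genes. For Socs3 the strongest was a region 5.70 kb downstream of the start (chr11:117824345-117825226), at 6.15, 5.48, 7.08 and 6.64, with summits within 21 bp. A Socs2 region at the 3′ UTR (chr10:94848305-94848808), with a STAT core in its window, was held by both male lists alone, at 3.79 in male B6 and 3.08 in male CAST. Of the regions in both male lists only, 3.79 was the highest value in male B6.

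Upstream of Cish, male CAST alone held a region 16.1 kb before the start at 4.20 and another 12.6 kb before it at 3.61. The region 6.37 kb upstream (chr9:107191324-107192500) covers the start of Mapkapk3, a kinase gene. It had 3.39, 3.57, 5.61 and 3.63 in male B6, female B6, male CAST and female CAST, with male CAST the highest.

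Igf1 encodes the hormone through which the liver passes the growth hormone signal on, and its regions were strongest deep in the introns, not at the start. The start-site region (chr10:87321764-87322230) was found in the male lists alone, at 1.76 in B6 and 1.90 in CAST, a mean percentile of 0.695 within these lists. Its summit pile-up was 63 fragments in male B6 and 87 in male CAST, against medians of 79 and 78 over those lists. The low rank thus goes with a local background above the genome-wide one, and not with few fragments. The strongest Igf1 region, given below, had pile-ups of 355 and 443 there. Another region, 0.373 kb upstream of an annotated Igf1 start that no region covers, was in 3 lists, at 2.69 and 2.53 in B6 males and females and 2.37 in CAST males. By contrast, the strongest Igf1 region (chr10:87347890-87348858, intron, 24.3 kb from the nearest start) had 11.1 and 7.94 in B6 males and females and 11 and 9.32 in CAST males and females, at or above the 94.6 percentile in every list.

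In all, 5 of 15 Igf1 regions were in all 4 lists, and they lay between 24.3 and 65.8 kb from the nearest start. The region at 45.7 kb with 2 STAT cores (chr10:87368724-87370085) had 7.38, 4.85, 7.61 and 6.38. Both male lists alone also held regions at chr10:87323547-87323997, with 1.73 in male B6 and 2.56 in male CAST, and at chr10:87329077-87329435, with 3.49 and 2.40. Both CAST lists alone held an intron region with a STAT core (chr10:87325507-87326148) at 2.84 in males and 2.95 in females.

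At Igfals, the start region (chr17:25014209-25015730) had fold enrichments of 7.96 and 6.14 in B6 males and females and 8.13 and 8.36 in CAST males and females. The strongest region by rank was 7.79 kb downstream (chr17:25023080-25023971), at 8.84, 6.81, 8.33 and 7.16, and it covers the starts of Nubp2 and Spsb3, so it cannot be given to Igfals alone. Of the 8 regions, 2 were in all 4 lists.

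**Figure D4:**
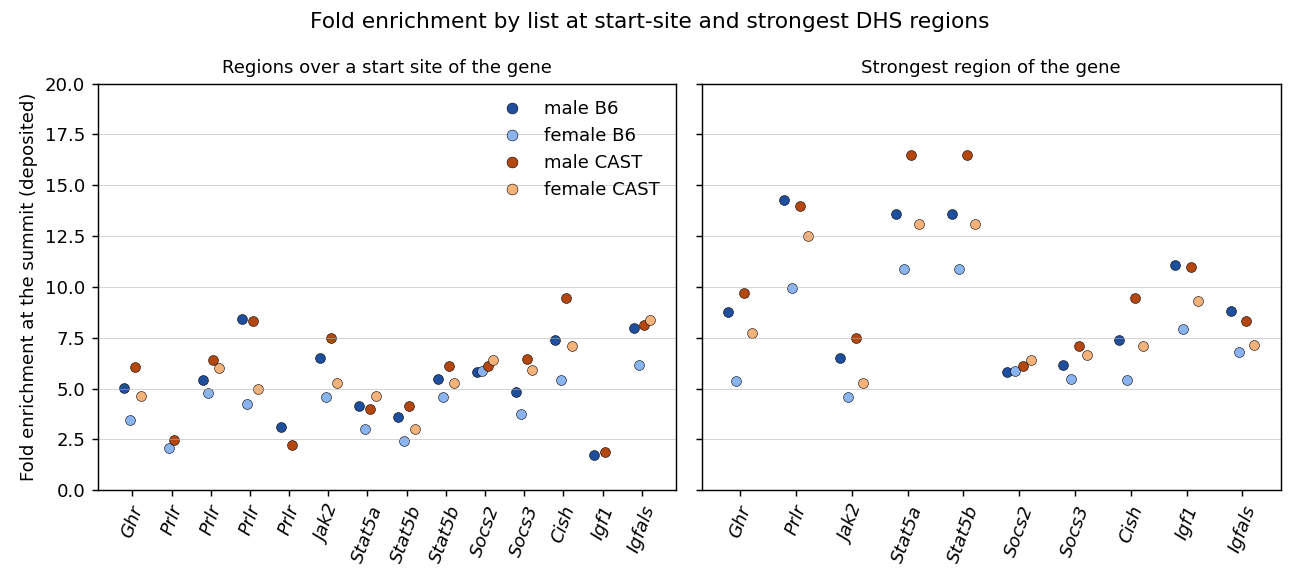
Deposited fold enrichment at the summit, 1 point per list, at each region over a start site of a gene (left) and at the strongest region of each gene (right). Both Igf1 start values are under 2, whereas the strongest Igf1 region lies between 7.94 and 11.1 in the 4 lists. A missing point means that the list held no DHS there.

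The first comparison was between males and females within each strain. In B6, 55 of 98 regions of the axis were in both lists, or 56.1%, against 58.4% of all regions. In male B6 alone there were 36 (36.7%, against 36.4% of all regions), and in female B6 alone 7 (7.14%, against 5.13%). In CAST, 55 of 102 were shared (53.9%, against 55.8%), 44 were in the male list alone (43.1%, against 40.3%) and 3 in the female list alone (2.94%, against 3.90%). These shares lie near those of the genome. The male-only regions were weak, with a median fold enrichment of 2.31 in B6 and 2.53 in CAST, where regions in both lists had 5.01 and 5.98. This held for the lists as a whole, with 2.53 and 2.68 over all male-only regions and 4.76 and 5.32 over all shared ones. After allowing for the general difference between the lists, 12 of the 36 in B6 and 14 of the 44 in CAST would have been above the lowest value callable in the female list at the genome-wide background. These were 33.3% and 31.8% of the male-only regions of the axis, against 48.5% and 50.6% of all male-only regions.

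For regions in both lists, ratios of fold enrichment were divided by the median ratio over all such regions, which was 1.32 for male over female in B6 and 1.19 in CAST. The median ratio of the axis was then -0.02 on the log2 scale in B6 (range -0.56 to 0.59) and -0.03 in CAST (range -0.53 to 1.17), both close to the centre of the genome, which is 0 by construction. In B6, 1 region was higher in males by 1.5-fold or more (1.82%, against 2.62% of all regions) and 0 were lower (2.60% of all regions). In CAST, 1 was higher (1.82%, against 3.31%) and 0 were lower (2.56%). Without this centring, 15 regions were higher in males in B6 (27.3%, against 24.3% of all regions) and 5 in CAST (9.09%, against 12.5%), with 0 lower in each (0.0423% and 0.395% of all regions). By the excess of the pile-up over background, 3 were higher and 4 lower in B6 (5.45% and 7.27%, against 6.19% and 11.2%), and 3 were higher and 2 lower in CAST (5.45% and 3.64%, against 7.02% and 10.2%). The number of calls in each direction thus depended on the measure. With only the stronger DHS, 0 of 30 shared regions in B6 and 0 of 32 in CAST were higher (0.997% and 1.07% of all regions), and with lists of equal size, 0 of 52 and 1 of 52 (2.24% and 3.13%). The Prlr region called in B6 stayed in both lists there, with log2 ratios of 0.57 and 0.56 in place of 0.59, just under 1.5-fold. The Prlr region called in CAST was missing from the stronger DHS of female CAST, so no ratio could be formed. With lists of equal size it had 1.14.

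Both higher regions were at Prlr. The start region at chr15:10178825-10179672 had a centred male over female ratio of 0.59 on the log2 scale in B6 (counting interval 0.24 to 0.97) and 0.49 in CAST (0.09 to 0.94). The intron region over the Agxt2 start had 0.56 in B6 (0.17 to 0.99) and 1.17 in CAST (0.59 to 1.88), and its summit in female CAST rested on a pile-up of 26 fragments. Both regions therefore had male values above female values in each strain, but with centring no region of the axis passed 1.5-fold in the same direction in both strains. Over all 18309 regions in the 4 lists, 78 were higher in males in both strains with centring and 16 lower. Without centring, 3 Prlr regions were higher in both strains, these 2 among them, which is 6.98% of 43 regions against 5.22% of all regions. The third, at chr15:10155267-10156033, held a STAT core. Its centred ratios were 0.51 in B6 (0.23 to 0.80) and 0.40 in CAST (0.09 to 0.73), under 1.5-fold. On the female side, the Socs2 start had -0.41 in B6 (-0.72 to -0.10) and -0.32 in CAST (-0.68 to 0.06). These intervals of 95% cover counting error only, since amplified fragments are not independent and the animals were pooled.

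The other comparison was between the strains. In males, 74 of 116 regions were in both lists, or 63.8%, against 60.0% of all regions, with 17 in male B6 alone (14.7%, against 19.1%) and 25 in male CAST alone (21.6%, against 20.9%). In females, 44 of 76 were shared (57.9%, against 59.1%), with 18 in female B6 alone (23.7%, against 22.6%) and 14 in female CAST alone (18.4%, against 18.3%). With only the stronger DHS, the shared fraction in females was 87.9%, against 65.7%. By the limit used above, 16 of the 17 and 21 of the 25 in males would have been callable (94.1% and 84.0%, against 98.6% and 94.6% of all regions). In females it was 18 of 18 and 14 of 14 (100% each, against 99.4% and 96.6%). The centred B6 over CAST ratio had a median of -0.07 on the log2 scale in males (range -0.65 to 0.71) and -0.06 in females (range -0.86 to 0.98).

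In males, 3 regions were higher in B6 by 1.5-fold or more (4.05%, against 4.49% of all regions) and 1 was lower (1.35%, against 6.68%). In females, 1 was higher (2.27%, against 3.42%) and 2 were lower (4.55%, against 4.97%). Without centring, 1 was higher and 1 lower in males (1.35% each, against 3.17% and 8.81% of all regions), and 1 was higher and 8 lower in females (2.27% and 18.2%, against 0.823% and 15%). By the excess of the pile-up over background, 3 were higher and 12 lower in males (4.05% and 16.2%, against 11.9% and 15.8%), and 1 higher and 7 lower in females (2.27% and 15.9%, against 10.8% and 12.8%). With only the stronger DHS, 0 of 43 regions in males were higher and 1 was lower (2.11% and 4.10% of all regions), and 0 of 29 in females passed 1.5-fold either way (1.29% and 2.55%). The 3 regions called in females, described below, then had no ratio. Of the female lists, only CAST still held the Stat5b and Ghr regions, and only B6 the Prlr region. With lists of equal size, 0 of 52 in males were higher and 1 was lower (2.57% and 4.90%), and of 44 in females 1 was higher and 2 lower (3.38% and 4.82%), with the same log2 ratios as in the full lists.

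The 3 regions higher in male B6 were in a Jak2 intron (chr19:29339938-29340581), with a log2 ratio of 0.71 (0.16 to 1.31), downstream of Socs3 (chr11:117810616-117811431), with 0.63 (-0.00 to 1.31), and in an Igf1 intron (chr10:87329077-87329435), with 0.62 (0.20 to 1.04). Their fold enrichments were 4.15 in male B6 and 2.69 in male CAST at Jak2, 3.26 and 2.23 at Socs3, and 3.49 and 2.40 at Igf1. All 3 were lost as calls with the stronger DHS and with lists of equal size, where male CAST no longer held them. With the stronger DHS, the Socs3 region was missing from male B6 as well. None of the 3 was found in female CAST, so the strain ratio could not be formed in females. The region lower in male B6 was that over the Mapkapk3 start upstream of Cish, at -0.65 (-1.09 to -0.23) in males and 0.22 (-0.38 to 0.88) in females.

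In females, the Agxt2 start region in Prlr was higher in B6, at 0.98 (0.35 to 1.72), and at 0.36 (0.01 to 0.71) in males. A region over a coding exon of Stat5b (chr11:100652005-100653269) was lower in B6, at -0.86 (-1.36 to -0.38) in females and -0.43 (-0.79 to -0.09) in males. Its fold enrichments were 5.01 and 3.53 in B6 males and females and 7.12 and 7.60 in CAST males and females, both CAST values above both B6 values. The Ghr intron region with the STAT core at chr15:3440964-3441483 was also lower, at -0.59 (-1.10 to -0.09) in females and -0.36 (-0.65 to -0.06) in males. By fold enrichment, no region passed 1.5-fold in the same direction in both sexes, where 158 of 18309 regions in all were higher in B6 in both and 400 lower. By excess pile-up the Stat5b region was lower in B6 in both sexes, 1 of 43 regions or 2.33%, against 6.24% of all regions.

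**Figure D5:**
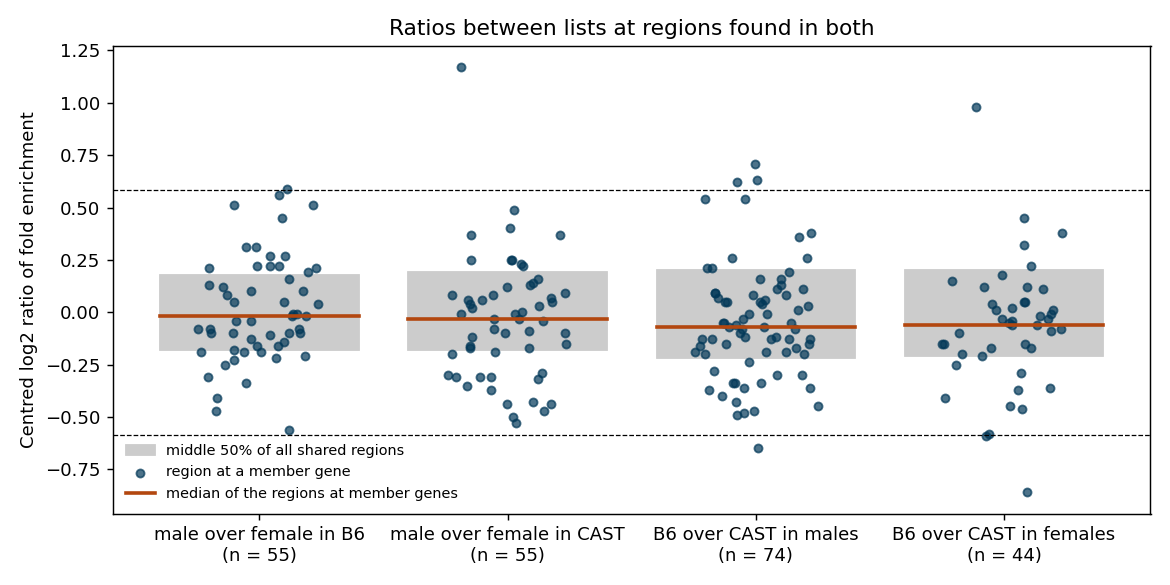
Centred log2 ratio of fold enrichment at regions found in both lists of each comparison. Each point is a region at the 10 genes, the orange line is their median, the grey box spans the middle 50% of all shared regions, and the dashed lines mark 1.5-fold on the log2 scale. The medians lie between -0.07 and -0.02, and the highest points in the CAST and female comparisons, 1.17 and 0.98, are the same Prlr intron region over the Agxt2 start.

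At the 43 regions in all 4 lists the summits of the lists spread over a median of 74.0 bp (lowest 13, highest 862), against 91.0 bp over all such regions, and within 50 bp at 11 of them, or 25.6%, against 22.7%. The median width in bp was 789 and 711 in B6 males and females and 864 and 621 in CAST males and females. In all regions found in 4 lists it was 803, 646, 788 and 599 bp.

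Another 20 genes of growth hormone and IGF1 signalling (IGF binding proteins, receptors, phosphatases, adaptors and related STAT, BCL6 and CUX2 factors) had 125 regions, some of them at Stat3, whose window overlaps that of Stat5a. All 4 lists held 56 of them, or 44.8%, against 35.6% of all regions, and a single list 31, or 24.8%, against 35.2%. The shared fraction was 62.9% between sexes in B6 (58.4% of all regions), 62.2% between sexes in CAST (55.8%), 73.7% between strains in males (60.0%) and 67.8% in females (59.1%), each above that of all regions. By 1.5-fold, of 66 shared regions in B6, 1 was higher and 1 lower in males than in females (1.52% each, against 2.62% and 2.60% of all regions), and of 69 in CAST, 3 were higher and 5 lower (4.35% and 7.25%, against 3.31% and 2.56%). Between strains, of 87 in males, 3 were higher in B6 and 7 lower (3.45% and 8.05%, against 4.49% and 6.68%), and of 59 in females, 0 were higher and 2 lower (0% and 3.39%, against 3.42% and 4.97%). Of these 125 regions, 1 was in both female lists only, of 32 such regions in the genome. It was at Cux2, a transcription factor gene known for female-specific expression in mouse liver, and was singled out after its values were seen. The Cux2 regions shared between sexes did not all go that way. In B6, 1 of 7 was higher in males by 1.5-fold and 0 were lower, and in CAST 0 of 8 were higher and 3 lower. The growth hormone gene Gh, expressed in the pituitary, had 1 region, held by both CAST lists, and the growth hormone releasing hormone receptor gene Ghrhr 1, in male CAST.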

How the data were processed

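DNase-seq libraries from liver nuclei were grouped by sex and strain from their titles. Bowtie2 was used by the authors to place unique reads on mm9 (B6) or to an mm9 version carrying CAST variants, with coordinates returned to mm9. They called DHS with MACS2 on the 4 pooled libraries of a group, with blacklisted sites and peaks made of duplicated reads removed. The fold ratio deposited by the authors is summit pile-up over local background, the deposited −log10 values are p and q against the list's own background, and the summit is given as an offset. The deposited fold enrichment and −log10 p-value together gave back whole pile-up counts for 99.9% or more of peaks, within 0.02. Read totals were not used here.

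Peaks sharing 1 bp were joined over all 4 lists. Annotation was GENCODE for mm9, and sequence the same assembly. Between lists, log2 ratios were centred on the median of all shared regions, called at 1.5-fold, with 95% intervals from pile-up counts. No test was run, as each group is 1 pooled list. Percentiles rank fold enrichment within a list. The member genes, gene lists and rules were chosen with earlier results of these data known. Regions given individually were those over a start site, the strongest of each gene by mean percentile, those in 1 sex or strain only in both of the other, and those past 1.5-fold, where the last were taken in any comparison, since none passed it in the same direction in both. A few others (single-list Cish regions, a Prlr region past 1.5-fold only without centring, Ghr, Socs2 and Igf1 neighbours) were named after their values were seen. Joining, pile-up recovery and motif search were tested on simulated data. Python 3.11.15, pandas 2.3.3, SciPy 1.17.1 and pysam 0.24.0 were used.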

Additional observations from a re-analysis of the deposited data

How the results depend on the processing

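Each list pools its 4 libraries, so no replicate could be left out. No paired analysis was possible because the replicate numbers are lost in the pooled lists. With only the stronger DHS (−log10 q of at least 15.7), the regions at the 10 genes fell from 123 to 59, of which 49.2% were in all 4 lists (34.1% of all regions), and the shared fraction between strains was 72.9% in males (68.3% of all regions) and 87.9% in females (65.7%). With the 24888 highest-scoring DHS of each list, 52.4% of regions were in all 4 lists (47.9% of all regions). The shared fraction was then 77.6% between sexes in B6 (72.6% of all regions), 75.4% between sexes in CAST (71.6%) and 74.3% between strains in males (67.7%). The fractions thus depended on list length and threshold. Overlap of 50%, joining within 500 bp, the gene body alone and a 50 kb window kept the number of regions within 1.5 times and the fractions within the counting interval. Counts past 1.5-fold were few and did move: the 50 kb window gave 2 of 71 and 3 of 70 regions higher in males in B6 and CAST (2.82% and 4.29%, against 2.62% and 3.31% of all regions), where there was 1 each. Between strains in males, joining gave 2 of 70 regions lower in B6 in place of 1 (2.86%, against 6.73%), the gene body alone 2 of 52 higher (3.85%, against 4.49%) and 0 lower (against 6.68%), and the 50% overlap 2 of 69 higher in place of 3 (2.90%, against 4.13%). The stronger DHS and lists of equal size left 0 of the 3 higher. Without centring, the median log2 ratios were 0.37 and 0.22 for males over females in B6 and CAST, and -0.15 and -0.30 for B6 over CAST in males and females. By excess pile-up they were 0.12 for males over females in CAST and -0.22 for B6 over CAST in males, and the cause of these shifts was not tested. The share of regions with a STAT core was 30.9% over the whole region (19.9% of all regions) and 1.63% with the stricter letters. The split by GC content was chosen after seeing the data. Depth limits the female CAST list most, with a background of 7.94 fragments.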
